A study of Mus musculus with 6 samples.

Results

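Dopamine that has left its synapse is taken up by low-affinity, high-capacity carriers and then broken down inside the cell, and astrocytes are known to take part in both steps. *Slc22a3* encodes the organic cation transporter OCT3 and *Slc29a4* the plasma membrane monoamine transporter PMAT, both of which carry dopamine across the membrane. *Maoa* and *Maob* encode the monoamine oxidases of the outer mitochondrial membrane, which deaminate dopamine to an aldehyde and release hydrogen peroxide, and *Sult1a1* encodes a sulfotransferase that adds sulfate to phenols and catechols. These 5 genes were chosen by name, as the uptake and breakdown genes of dopamine, and their rows were looked up by Ensembl identifier among the 17193 genes listed. *Slc22a3* had no row and was not analysed here, which left 4 genes.

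Their mRNA was measured by RNA sequencing in astrocytes from the brains of wild-type C57BL/6 mice, 3 months of age. The mice were given quinpirole, an agonist of the dopamine receptor DRD2, or were mock-treated, and there were 3 libraries per group. The cells were collected with beads against ACSA-2, a surface antigen of astrocytes. Quinpirole was the only factor that differed between the groups in the labels. The dose and duration for the sequenced mice, and whether a library was 1 mouse or a pool, are not given in the sources used here. The p-values therefore measure the spread between these libraries, which may be partly technical. Levels are in FPKM, the fragments scaled by transcript length and by library depth, so that levels of different genes can be compared per length.

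The libraries held an estimated 22080000 to 27420000 fragments each. Of 10 astrocyte markers, 9 reached a mean of 1 FPKM, with *Aldh1l1* between 165 and 182 FPKM and *Gfap* between 482 and 560 FPKM. The astrocyte connexin gene *Gjb6* was nearly absent, at 0.0562 to 0.281 FPKM, and the glutamate transporter gene *Slc1a2* lay at 5.15 to 8.55 FPKM. All 10 microglia markers also reached 1 FPKM, and the smooth-muscle genes *Acta2* and *Tagln* lay at 2518 to 2881 and 2228 to 2605 FPKM. Of 8 markers of monoamine neurons 7 had a row and 0 reached 1 FPKM, and their summed level lay between 0.312 and 0.471 FPKM. In such bulk samples, fewer cells of a type and less RNA per cell cannot be told apart.

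*Maoa* and *Maob* lie end to end on the X chromosome (GRCm38), 21.5 kb apart and on opposite strands. *Maoa* spans 16619698 to 16687818 on the plus strand and *Maob* 16709282 to 16817366 on the minus strand, each with 15 exons. As they are close relatives, their coding sequences were aligned to see how well reads of either gene could be told from the other. They were identical at 71.0% of 1547 aligned positions, the longest identical run was 35 bases, and no word of 50 bases of the *Maob* transcript occurred in a transcript of another gene. Of the *Maoa* transcript, 4.0% of such words also occurred in transcripts of other genes, none of which was *Maob*. The most similar stretch of 90 bases within 1 exon of both genes is shown because it is where the reads of both were hardest to separate. It lies in exon 12 of each, at chrX:16682201-16682290 for *Maoa* and at chrX:16716394-16716483 for *Maob*, is written 5′ to 3′ along the mRNA from the GENCODE M21 transcripts, and has the 9 differing bases in capitals.
Maoa: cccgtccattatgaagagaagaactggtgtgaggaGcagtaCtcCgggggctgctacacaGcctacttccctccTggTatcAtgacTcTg
Maob: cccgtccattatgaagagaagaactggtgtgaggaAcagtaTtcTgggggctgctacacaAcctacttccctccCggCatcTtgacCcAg

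*Maoa* was by far the more abundant oxidase mRNA, although *Maob* is the oxidase best known from astrocytes. The FPKM of *Maoa* was 12.6 to 20.7 times that of *Maob* across the 6 libraries, and *Maob* made up 4.62% to 7.34% of the summed FPKM of both. *Maoa* had a higher mean than 72.9% of the genes listed, and *Sult1a1*, with a mean of 10.3 FPKM, than 62.2%. *Maob* and *Slc29a4* lay close to each other at means of 1.13 and 1.12 FPKM, above 29.7% and 29.5% of the genes. The order *Maoa* over *Sult1a1* over the remaining pair held in 6 of 6 libraries, whereas *Maob* exceeded *Slc29a4* in 3 of 6, so these last neighbours did not differ beyond their spread.

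*Maoa*, whose enzyme prefers serotonin and noradrenaline and also oxidises dopamine, measured 15.0, 15.8 and 15.4 FPKM in mock libraries 1 to 3 and, after quinpirole, 18.3, 17.7 and 17.3 FPKM in libraries 1 to 3. Every quinpirole library lay above every mock library, as was the case for 20.0% of the 12255 genes tested, while for 16.9% every quinpirole library lay below. *Maoa* was the only one of the 4 genes whose groups did not overlap, against 36.9% of all tested genes. The mean rose by 15.3%, from 15.4 ± 0.369 (SD, n = 3) to 17.8 ± 0.472 FPKM (SD, n = 3). On the scale of log2(FPKM + 1) the change was 0.19 (standard error 0.04, 95% interval 0.09 to 0.30, adjusted p = 0.0384 by limma over all tested genes). *Maoa* was thus 1 of the 4 genes past an adjusted p of 0.05, and 0 of the 4 were lower. Of all tested genes, 10.9% were past it, 5.74% higher and 5.18% lower after quinpirole, so that 1 in 4 is no result about the list. With quantile normalization the split of all genes was 283 higher and 499 lower. The change of *Maoa* was of the usual size among the higher genes, whose median was 0.24.

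**Figure D1:**
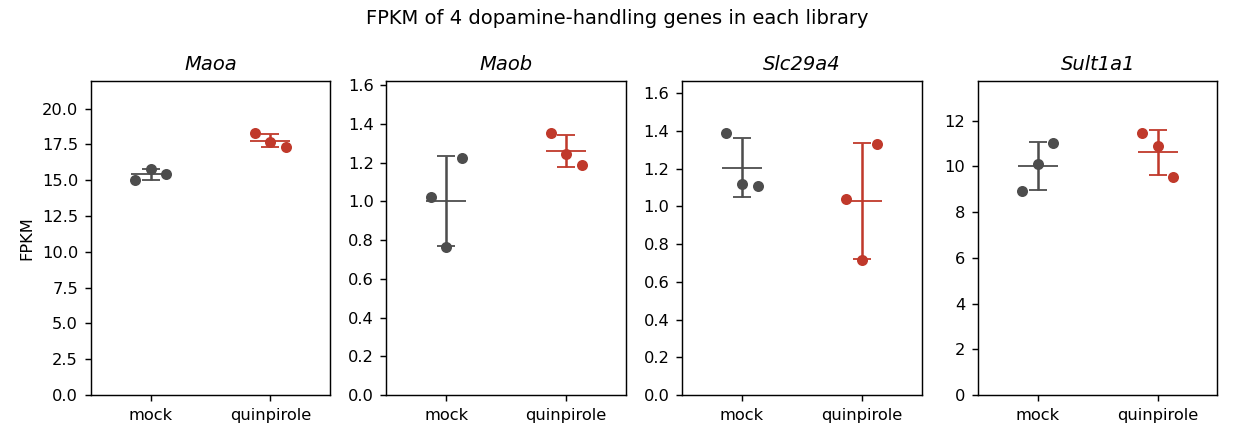
FPKM of *Maoa*, *Maob*, *Slc29a4* and *Sult1a1* (vertical axes from 0, a separate scale for each gene) in the 3 mock and the 3 quinpirole libraries. Points are libraries, horizontal marks are group means and bars are ± 1 SD. The groups are apart for *Maoa*, at 15.0 to 15.8 against 17.3 to 18.3 FPKM, and overlap for the other genes.

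The call for *Maoa* stood close to the threshold. The log2 change was positive in 16 of 16 alternative fits, between 0.17 and 0.21, and past the threshold in 4 of them. It was not past it when any library was left out, with adjusted p-values of 0.114, 0.105 and 0.0589 without mock libraries 1, 2 and 3, and of 0.0959, 0.102 and 0.0635 without quinpirole libraries 1, 2 and 3 (limma). It also missed the threshold with quantile normalization (adjusted p = 0.0513), with no filter on low values (0.0509), with a variance not tied to expression level (0.0529) and with every library corrected for its relation to transcript length (0.0592, limma throughout). The SD among mock libraries was 2.4% of the mean and that among quinpirole libraries 2.7%, where the counting error of the estimated 1596 to 2036 fragments alone would be 2.2% to 2.5%.

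**Figure D2:**
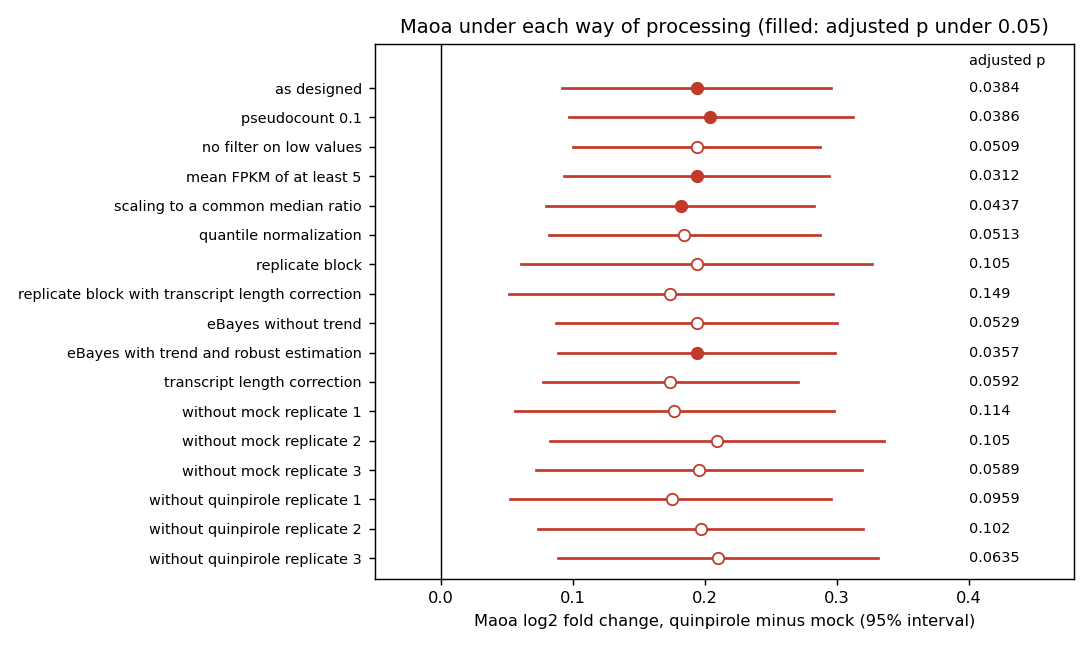
Log2 fold change of *Maoa* (horizontal axis, quinpirole minus mock, with its 95% interval) in the fit as designed and in 16 alternatives, with the adjusted p at the right. Filled points have an adjusted p under 0.05, and every point lies between 0.17 and 0.21.

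The summed markers of several cell types also differed between the groups, some higher and some lower after quinpirole. Within most lists single markers went both ways. Genes whose groups did not overlap made up 36.9% of all tested genes. The summed level of the 10 mural markers, of which 4 reached 1 FPKM, was 4798 to 5130 FPKM in the mock and 5149 to 5509 FPKM in the quinpirole libraries. This sum is almost wholly *Acta2* and *Tagln*, neither of which passed the threshold (adjusted p = 0.171 and 0.199, limma). The pericyte marker *Pdgfrb* fell from 26.2 to 21.2 FPKM (adjusted p = 0.0227, limma), and *Cspg4*, *Myh11* and *Vtn* had lower means. So did *Kcnj8* and *Des*, whereas *Rgs5* and *Abcc9* had higher means, each of them under the filter. The sum of the 6 markers of oligodendrocyte precursors, 3 of which reached 1 FPKM, was 307 to 316 against 330 to 353 FPKM, and is almost wholly *Olig1*, which rose (adjusted p = 0.0490, limma), and *Olig2*. *Gpr17* and *Pdgfra* lay under the filter and were lower in every quinpirole library than in any mock library, but *Pdgfra* is also among the fibroblast markers. *Sox10*, likewise under the filter, overlapped between the groups, with means of 0.323 FPKM in the mock and 0.311 FPKM in the quinpirole libraries. The sums of the 10 microglia markers overlapped, at 776 to 829 against 826 to 905 FPKM. Of these, 7 had higher means and 3 lower, and *Csf1r*, *Cx3cr1* and *Itgam* lay below the mock libraries in every quinpirole library without passing the threshold. The 10 astrocyte markers summed to 1196 to 1302 against 1153 to 1192 FPKM, with 3 tested markers higher and 6 lower in mean, and *Atp1b2* and *Slc1a2* fell (adjusted p = 0.0382 and 0.0297, limma). The 10 neuron markers, 3 of which reached 1 FPKM, summed to 97 to 102 against 105 to 113 FPKM. This sum is almost wholly *Stmn2*, which rose (adjusted p = 0.0322, limma), *Map2* and *Tubb3*. *Map2* lay below the mock libraries in every quinpirole library and *Tubb3* above them, without passing the threshold (adjusted p = 0.147 and 0.0844, limma). The 8 fibroblast markers, 5 of which reached 1 FPKM, summed to 126 to 141 against 102 to 114 FPKM, and *Col1a1* fell (adjusted p = 0.0298, limma). The sums of endothelial, ependymal, choroid plexus and oligodendrocyte markers overlapped between the groups. No marker with a row was at 0 in every library, and the oligodendrocyte marker *Opalin* had no row. The part of these lists in the change of *Maoa*, or of the pathway genes described further on, was not tested.

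*Maob*, whose enzyme prefers phenylethylamine and also oxidises dopamine, measured 1.02, 0.763 and 1.22 FPKM in mock libraries 1 to 3 and, after quinpirole, 1.35, 1.24 and 1.19 FPKM in libraries 1 to 3. Mock library 2 was the lowest, and the groups overlapped, since quinpirole library 3 lay below mock library 3. The means were 1.00 ± 0.231 (SD, n = 3) and 1.26 ± 0.0825 FPKM (SD, n = 3), a log2 change of 0.18 with a 95% interval of -0.05 to 0.42 (adjusted p = 0.257, limma). The difference did not exceed the spread between libraries, and the interval holds both no change and a change larger than that of *Maoa*. In FPKM the mean of *Maob* was 25.9% higher after quinpirole, against 15.3% for *Maoa*, as adding 1 FPKM understates changes at this level. With a pseudocount of 0.1 the log2 changes were 0.325 for *Maob* and 0.204 for *Maoa* (adjusted p = 0.261 and 0.0386, limma). The values of *Maob* rest on an estimated 58 to 101 fragments per library, whose counting error is at most 13.1%, and the SD among mock libraries was 23.0% of the mean. Without mock library 2 the log2 change was 0.09.

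The balance of both oxidase mRNAs was compared directly. The log2 ratio of *Maob* to *Maoa*, each as FPKM + 1, was -2.99, -3.25 and -2.89 in mock libraries 1 to 3 and, after quinpirole, -3.03, -3.06 and -3.07 in libraries 1 to 3. The quinpirole libraries lay inside the range of the mock libraries, and the group means differed by -0.01 (two-sided exact permutation p = 1, where 3 libraries against 3 allow no p under 0.1). With a pseudocount of 0.1 the difference was 0.12 (exact permutation p = 0.8).

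The promoter of *Maoa* is shown because it was the gene that rose, and that of *Slc29a4* because of the 3 promoters matched for measured genes it alone held the letters of the antioxidant response element, the motif bound by Nrf2, the transcription factor this study was about. Both are RefSeq windows on GRCm38.p6 of 250 bases before to 50 bases after the start, 5′ to 3′ along the gene, at chrX:16619448-16619747 on the plus strand and at chr5:142701851-142702150 on the plus strand. The *Slc29a4* window belongs to the transcript that starts at 142702101, inside the gene, whose other annotated transcript starts at 142692512. Of the 5 genes, 4 matched the promoter table and *Maob* did not. Capitals mark the GC box GGGCGG, which binds Sp1-type factors, and the antioxidant response element TGACNNNGC, either of them on any strand and overlapping where they share bases.
Maoa: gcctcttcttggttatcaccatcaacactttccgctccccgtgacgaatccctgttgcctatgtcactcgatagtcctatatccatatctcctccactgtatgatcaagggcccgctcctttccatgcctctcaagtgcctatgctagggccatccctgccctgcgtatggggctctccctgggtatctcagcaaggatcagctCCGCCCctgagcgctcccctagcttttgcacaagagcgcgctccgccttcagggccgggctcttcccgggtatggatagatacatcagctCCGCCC
Slc29a4: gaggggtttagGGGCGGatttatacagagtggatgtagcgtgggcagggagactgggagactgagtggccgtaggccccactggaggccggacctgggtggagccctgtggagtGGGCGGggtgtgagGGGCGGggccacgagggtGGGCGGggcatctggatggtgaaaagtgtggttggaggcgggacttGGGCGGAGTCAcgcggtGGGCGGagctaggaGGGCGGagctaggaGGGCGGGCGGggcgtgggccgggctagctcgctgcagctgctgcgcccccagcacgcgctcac
The *Maoa* window held 2 GC boxes, both on the other strand, and 0 antioxidant response elements. The *Slc29a4* window held 9 GC boxes and 1 antioxidant response element, which overlaps a GC box. The windows of *Sult1a1* and *Slc22a3* held 0 of either. Of all 32851 promoter windows, 35.7% hold a GC box and 12.4% the letters of the antioxidant response element, so that these matches are a description of the windows.

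*Slc29a4*, the transporter gene (chromosome 5, 142692512 to 142722490, plus strand), measured 1.39, 1.12 and 1.11 FPKM in mock libraries 1 to 3 and, after quinpirole, 1.04, 0.718 and 1.33 FPKM in libraries 1 to 3. Quinpirole library 2 was the lowest of all and quinpirole library 3 the second highest of all, so the groups overlapped. The means were 1.21 ± 0.157 (SD, n = 3) and 1.03 ± 0.308 FPKM (SD, n = 3), a log2 change of -0.13 with a 95% interval of -0.42 to 0.16 (adjusted p = 0.509, limma). It was the only one of the 4 genes with a lower mean after quinpirole, by less than the spread between libraries. Between 53 and 105 fragments stood behind each value, with a counting error of 9.8% to 13.8%, against an SD of 29.9% of the mean among quinpirole libraries. Without quinpirole library 2 the log2 change was -0.01.

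*Sult1a1*, the sulfotransferase gene (chromosome 7, 126672865 to 126676432, minus strand), measured 8.92, 10.1 and 11.02 FPKM in mock libraries 1 to 3 and, after quinpirole, 11.5, 10.9 and 9.53 FPKM in libraries 1 to 3. The groups overlapped, as mock library 3 lay above quinpirole libraries 2 and 3. The means were 10.02 ± 1.05 (SD, n = 3) and 10.6 ± 0.988 FPKM (SD, n = 3), a log2 change of 0.08 with a 95% interval of -0.13 to 0.29 (adjusted p = 0.592, limma). Its exonic length of 1507 bases puts it among the shortest genes when all tested genes were split by length into 5 equal parts, where the median log2 change was 0.12, against -0.11 among the longest. After the correction for transcript length the log2 change was -0.03, and it was 0.0039 without mock library 1, 0.03 without quinpirole library 1, 0.14 without mock library 3 and 0.15 without quinpirole library 3. Its exons share 61 bases with *Sgf29* on the opposite strand, and 8.3% of its words of 50 bases occur in transcripts of *Sgf29* or *Gm6939*, so part of its level is uncertain.

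The other genes of the dopamine pathway were read from a list of 52, of which 45 had a row and 29 passed the filter of a mean of 1 FPKM. Past the threshold, 5 of the 29 were higher and 0 lower after quinpirole, against 5.74% and 5.18% of all tested genes, and the median log2 change of the 29 was 0.10, against 0.02 for all. The count was not stable, since with quantile normalization 1 of them was past the threshold, with the length correction 1 (*Aldh1a1*, adjusted p = 0.0499, limma), and with single libraries left out between 0 and 4.

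Of 9 genes of dopamine synthesis and its cofactor tetrahydrobiopterin, 5 were tested and 2 rose, both of them genes that recycle the cofactor. *Qdpr*, encoding dihydropteridine reductase, rose from 39.7 ± 1.67 to 45.8 ± 1.18 FPKM (log2 change 0.20, adjusted p = 0.0353, limma). *Pcbd1*, encoding a pterin dehydratase, measured 3.49, 3.71 and 4.05 FPKM in the mock and 5.19, 5.10 and 4.63 FPKM in the quinpirole libraries (0.33, adjusted p = 0.0354, limma). Both calls were lost with the length correction, where the log2 changes were 0.10 and 0.20 (adjusted p = 0.153 and 0.0964, limma). The biosynthetic genes *Spr* and *Pts* had log2 changes of 0.03 and 0.12 (adjusted p = 0.830 and 0.306, limma). *Th*, the gene of the rate-limiting enzyme of dopamine synthesis, was listed at 0 in 5 of 6 libraries.

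The receptor targeted by quinpirole was hardly detected. *Drd2* measured 0.0947, 0 and 0.104 FPKM in mock libraries 1 to 3 and, after quinpirole, 0.0972, 0.0239 and 0 FPKM in libraries 1 to 3, below the filter. *Drd4* reached at most 0.0676 FPKM and *Drd3* 0.0384 FPKM.

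Of 13 other transporter genes, 5 were tested and 0 were past the threshold (limma). The neuronal dopamine transporter gene *Slc6a3* reached at most 0.0328 FPKM, and *Slc22a2*, a close relative of *Slc22a3*, at most 0.0746 FPKM. The most abundant of the 13 were *Slc22a4* and *Slc22a5*, known as carriers of ergothioneine and carnitine, and the nucleoside transporter gene *Slc29a1*. Their log2 changes were -0.05, -0.16 and 0.12 (adjusted p = 0.683, 0.161 and 0.306, limma).

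The aldehyde made by monoamine oxidase is oxidised or reduced further, and the genes of these steps were among the most abundant of the pathway. All 14 genes of the list on methylation and aldehyde metabolism were tested, and 2 rose. *Aldh1a1*, a cytosolic aldehyde dehydrogenase gene, measured 80.9, 78.5 and 70.8 FPKM in the mock and 93.9, 90.5 and 89.5 FPKM in the quinpirole libraries (log2 change 0.25, adjusted p = 0.0362, limma). *Adh5*, known for glutathione-dependent oxidation of formaldehyde, measured 60.7, 65.4 and 68.6 FPKM against 78.8, 81.3 and 72.4 FPKM (0.25, adjusted p = 0.0438, limma). The aldehyde reductase gene *Akr1a1* was the most abundant of the pathway, with 327 ± 10.2 and 370 ± 18.5 FPKM, and missed the threshold (0.17, adjusted p = 0.0537, limma). *Aldh7a1* measured 89.8 to 92.7 FPKM in the mock libraries and 49.1, 97.2 and 91.4 FPKM in libraries 1 to 3, so that its log2 change of -0.26 (adjusted p = 0.471, limma) became 0.05 without quinpirole library 1.

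Sulfation by *Sult1a1* needs an activated sulfate donor, which PAPS synthases make. *Slc35b2* carries this donor into the Golgi, and was listed for the donor, not as a step of sulfation by *Sult1a1*. Of 12 genes related to *Sult1a1* or to its donor, 5 were tested and 1 rose, *Slc35b2*, from 33.9 ± 0.447 to 38.3 ± 0.467 FPKM (log2 change 0.17, adjusted p = 0.0316, limma), or 0.12 with the length correction (adjusted p = 0.0828, limma). The synthase genes *Papss1* and *Papss2* had log2 changes of 0.03 and 0.18 (adjusted p = 0.574 and 0.0756, limma). Among the relatives of *Sult1a1*, *Sult4a1* alone passed the filter, at 1.70 to 2.35 FPKM, so *Sult1a1* was the most abundant of the sulfotransferase genes listed.

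**Figure D3:**
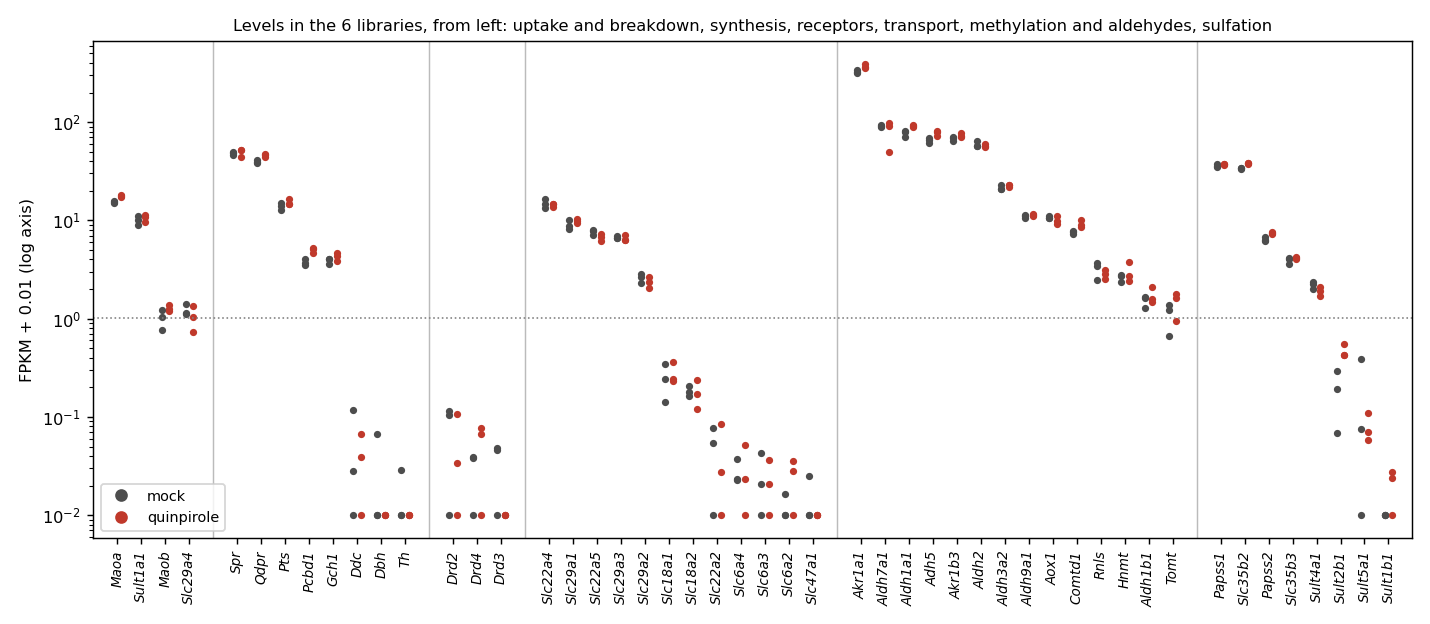
FPKM + 0.01 (vertical log axis) of the 4 uptake and breakdown genes and 45 other genes of the dopamine pathway, grouped by role. Each point is a library, grey for mock and red for quinpirole, and the dotted line marks the filter of 1 FPKM. The aldehyde-metabolising genes reach the highest levels, whereas receptors and neuronal transporters lie below 1 FPKM.

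**Figure D4:**
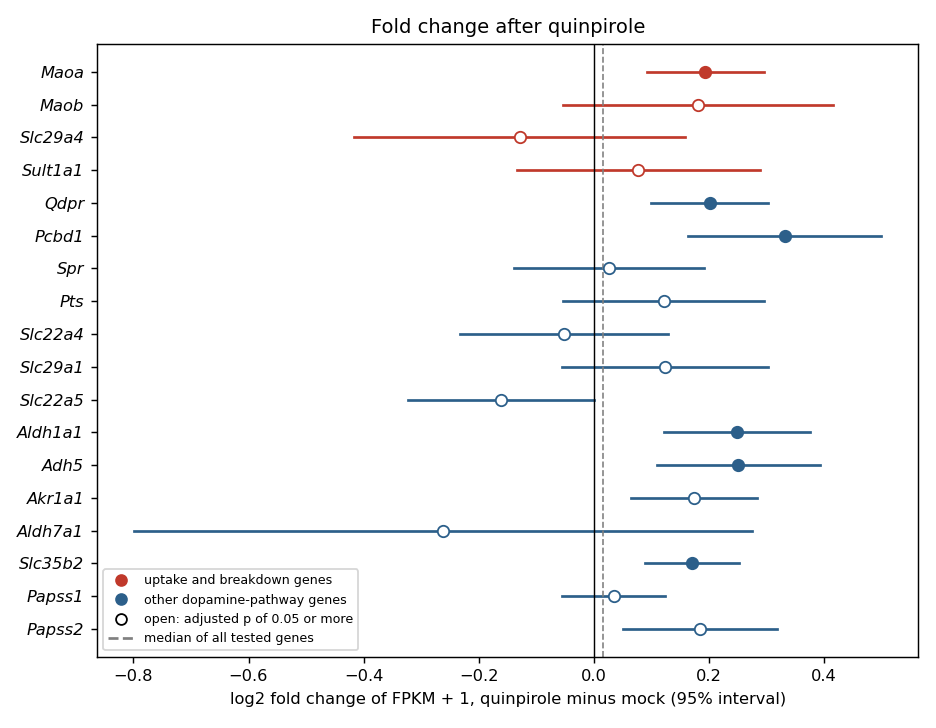
Log2 fold change of FPKM + 1 (horizontal axis, quinpirole minus mock, with 95% intervals from limma) for the 4 uptake and breakdown genes in red and 14 other tested genes of the pathway in blue. Filled points have an adjusted p under 0.05 (*Maoa*, *Qdpr*, *Pcbd1*, *Aldh1a1*, *Adh5* and *Slc35b2*), and the dashed line is the median of all tested genes, 0.02.

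The genes whose pattern over the 6 libraries was most like each member were listed by Pearson's r on log2(FPKM + 1), as a description with no test. For *Maoa* they were *Ctdsp1* (r = 0.996), *Rab7* (0.995) and *Micu2* (0.994), and 187 of 12222 genes, or 1.53%, reached 0.95. For *Maob* they were *Rps4l*, *Fxr1* and *Crem* (0.994 to 0.986), for *Slc29a4* they were *Kcnt1*, *Raver1* and *Klf3* (0.979 to 0.977), and for *Sult1a1* they were *Zfp97*, *Yju2* and *Tbc1d15* (0.992 to 0.985). None of these 12 genes belongs to the dopamine pathway list.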

How the data were processed

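The authors removed adaptors and low-quality reads from poly-A selected, paired-end libraries, mapped the rest with TopHat2 and used reads with at most 1 mismatch. The deposited values are FPKM, 1 for each gene in each library. The submitters' processing notes name GRCm38, and the program and annotation behind FPKM are not given in the sources used here. Symbols were matched to 17090 of 17193 identifiers, and positions, lengths and transcripts came from GENCODE M21 (GRCm38).

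Genes with a mean of at least 1 FPKM over the 6 libraries were compared on log2(FPKM + 1), which understates changes of low genes, with limma 3.58.1 in R 4.3.3 (eBayes with trend, two-sided, Benjamini-Hochberg over 12255 genes, threshold 0.05). On simulated data for this comparison, 197 of 200 genes given a log2 change of 1 were recovered and 7 unchanged genes passed the threshold. That change is larger than the 0.194 of *Maoa*, and the simulated spread was independent between genes and libraries. The simulation therefore does not tell how reliable calls at smaller changes are. Depth was estimated from the steps of low values of 1254 genes with 1 transcript and at least 2000 bases, of which 56.5% to 63.0% lay within 0.1 of a whole fragment against 20% by chance. Fragment numbers of a gene follow from this estimate and its exonic length. At most 0.0245% of tested values were identical between any 2 libraries. Promoter motifs were counted with Python 3.11.15, and coding sequences were aligned with Biopython 1.88. For the length correction, a loess curve (span 0.3) of each library's deviations against log2 exonic length was subtracted. Other alternatives were another pseudocount, filter, scaling or variance model, a replicate block and the omission of each library.

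The members and lists were chosen with earlier results of these data known. The genes named are the members, the pathway genes past the threshold, the 3 with the highest mean FPKM of each pathway list, and the 3 genes most like each member. Others named, such as markers, *Th*, *Sult4a1*, *Slc6a3* and *Slc22a2*, were picked after their values were seen.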

Additional observations from a re-analysis of the deposited data

How the results depend on the processing

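The number of genes past the threshold was 1339 as designed, 633 with no filter, 782 with quantile normalization, 714 without trend and 509 with the length correction. It was 2 with the replicate block and 0 with the replicate block and length correction together (limma, with 3308 and 2723 genes at an unadjusted p under 0.05), and 3 to 1182 with single libraries left out (at most 214 unless mock 3 was left out). Of the 4 members, 1 was past it as designed and 0 in these 6 settings and in each of the 6 fits without a library, where 1 or 2 had an unadjusted p under 0.05. *Maoa* had log2 changes of 0.194 with no filter, without trend and with the replicate block (adjusted p = 0.0509, 0.0529 and 0.105, limma), 0.184 with quantile normalization, and 0.174 with the length correction with or without the block. Without single libraries it ranged from 0.175 to 0.210. *Sult1a1* turned to -0.034 with the length correction with or without the block. Of the pathway genes, 5 were past the threshold as designed, 1 each with no filter, quantile normalization, no trend and the length correction, and 0 with the block with or without that correction (9 at an unadjusted p under 0.05 in either). The number was 0 to 4 without single libraries, where 8 to 10 had an unadjusted p under 0.05. The difference of the log2 ratio of *Maob* to *Maoa* turned to 0.12 with a pseudocount of 0.1 and ranged from -0.117 to 0.0643 without single libraries.

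Same-numbered libraries are not stated to share a litter, batch or day. Over all tested genes, their deviations from the group means correlated at 0.03, -0.07 and -0.10, against -0.10 to 0.15 for libraries of different numbers. Whether a link between same-numbered libraries acts on part of the genes was not tested, nor was the cause of the lower numbers with the block. Among 223 alternative values of 14 named pathway genes, 158 kept direction and side of the threshold, 52 no longer passed it, 2 newly passed it and 11 had the opposite sign. Only the 5 genes past the threshold as designed could stop passing it, so all of the 52 are values of these 5 genes. Quantile normalization reversed *Spr* (-0.0211) and *Papss1* (-0.0144), and the length correction, with or without the block, reversed *Spr* (-0.0176) and *Papss1* (-0.0229). Leaving out single libraries gave ranges of -0.0142 to 0.106 for *Spr*, -0.118 to 0.0238 for *Slc22a4* and -0.438 to 0.0474 for *Aldh7a1*, which all cross 0. The 95% intervals of *Maob* (-0.05 to 0.42) and *Slc29a4* (-0.42 to 0.16) include no change. Their values rest on an estimated 53 to 105 fragments per library, and the smallest change that could be detected was not tested.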
